A study of Mus musculus with 11 samples.

Results

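The rete testis (RT) was compared with the convoluted seminiferous tubules (ST) in all 3 RT arrays and all 4 ST arrays of a series of 11, over all 45101 probe sets of the Affymetrix Mouse Genome 430 2.0 array. Every mouse carried the W/Wv genotype and was 7 weeks old, so both groups lack most germ cells. W and Wv are mutant alleles of Kit, the receptor tyrosine kinase gene that migrating and dividing germ cells need. RT and ST pieces were cut by hand under a dissecting microscope after trypan blue had been injected by way of the efferent ducts to mark the regions, and each array holds RNA of a pool of 20 testes. The Sertoli valve (SV), which lies between the 2 regions, is not compared here. Its arrays enter the shared estimate of the spread, the choice of each gene's probe set and some alternative scalings. Neither group carries a transgene, and the labels give no other treatment.

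The rete testis is a network of channels that collects the fluid leaving the seminiferous tubules and passes it on to the efferent ducts. Its lining is a simple epithelium with keratin filaments and E-cadherin junctions, and it shares developmental regulators with the mesonephric ducts. The wall of the convoluted tubule is made of Sertoli cells, which support germ cells and secrete hormones and carrier proteins, with peritubular myoid cells around them. A piece cut by hand can carry tissue of its neighbours, and Leydig cells, vessels and macrophages can be in both. Values are MAS5.0 signals, a summary of the probe intensities of a gene's probe set on a linear scale, which were set by the authors to the same trimmed mean in every array. A difference was called when limma gave an adjusted p under 0.05 and the signals differed over 2-fold. The number of arrays limits the precision. P-values measure the spread between pools. Below, log2FC is the log2 fold change of RT over ST with its standard error, and signals are listed in the order RT replicates 1 to 3 and ST replicates 1 to 4.

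RT and ST differed at many probe sets, in both directions. Of the 45101 probe sets, 4607 (10.2%) were higher in RT and 2473 (5.48%) were lower. Among these called probe sets, no RT array overlapped any ST array in 97.5% of the higher ones and 95.9% of the lower ones. Calls favour separated groups, so these shares are not separate support for them. The share over all 45101 probe sets, against which they would be read, is not given here. In bulk tissue, fewer cells of a type and less RNA per cell cannot be told apart. Within replicates 1 and 2 alone the counts were 5089 and 2589, and within replicates 3 and 4 alone, with a single RT array, they were 1016 and 869. Without RT replicate 1, 3500 were higher and 2120 lower.

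The split between higher and lower depends on how the arrays are put on one scale. RT arrays had a median signal of 99.6–110.4 and ST arrays of 65.8–85.1 at the same trimmed mean, so that the median log2 fold change over all probe sets was 0.13 as deposited and -0.29 when every array was centred on its median. Median centring lowers each log2 fold change by 0.42, and 2812 probe sets (6.23%) were then higher and 5254 (11.6%) lower. All 2473 probe sets that were lower as deposited were also lower when centred, whereas 2812 of the 4607 higher ones remained higher. The share of calls that were higher was 65.1% as deposited, 49.6% after quantile normalization (7.72% and 7.84% of probe sets higher and lower), 34.9% with median centring and 24.2% when arrays were centred on 13 reference genes. That last scale does not hold the reference genes level. Their own median log2 fold change was 0.04 as deposited and -0.56 on it, with 2 of them called lower. Centred counts are given beside those as deposited for each gene list below.

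**Figure D1:**
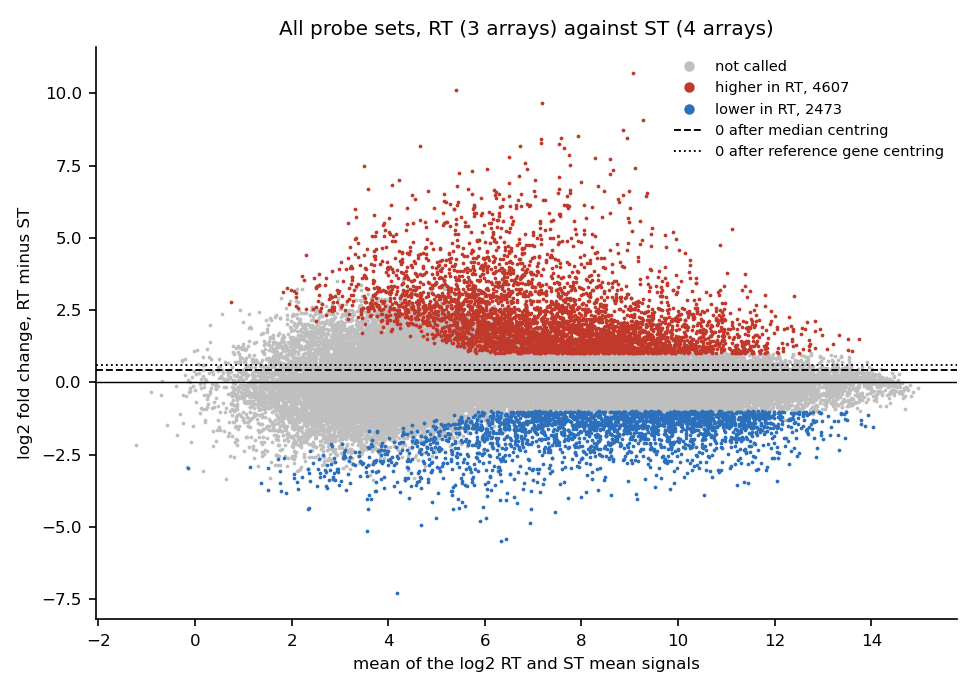
Log2 fold change of RT over ST (y axis) against the mean of the log2 mean signals of both groups (x axis), 1 point a probe set, for 3 RT and 4 ST arrays. Red points are the 4607 probe sets higher in RT and blue points the 2473 lower, the dashed line is the 0 of median-centred values at 0.42 and the dotted line that of values centred on reference genes at 0.60. Rises reach further from 0 than falls do.

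As deposited, rises were larger than falls. With signals below 32 set to 32, so that a near-zero signal cannot inflate a ratio, 170 of the 4607 higher probe sets changed over 16-fold and 1 of the 2473 lower ones did. Over 4-fold the counts were 1343 and 427. The higher group's signal was over 64 for 91.4% of the rises and 91.1% of the falls. Among probe sets whose higher group had a mean signal of 64–128, 11.6% were higher in RT and 3.60% lower, and among those over 4096, 8.11% were higher and 14.0% lower.

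At the gene level, with 1 probe set for each of 18194 genes, 2272 genes (12.5%) were higher in RT and 1335 (7.34%) were lower. When centred, 1452 (7.98%) were higher and 2724 (15.0%) lower. Counts of the gene lists below are to be read against these shares. The largest rise after the floor was that of Ecrg4, which encodes the secreted peptide precursor augurin. Its signal was 15978, 14009 and 10586 in RT and 36.1, 47.4, 10.8 and 19.9 in ST (log2FC 9.08 ± 0.47, limma adjusted p = 1.75e-07), and its log2FC was 8.52 with the floor of 32. Dsp, the gene of desmoplakin, which ties keratin filaments to desmosomes, had signals of 10195, 7284 and 9913 in RT and 19.4, 21.5, 26.8 and 39.8 in ST (log2FC 8.45 ± 0.32, adjusted p = 5.02e-08). The largest changes were taken only among genes without overlap between the groups, and in both genes the lowest RT array lay far above the highest ST array.

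The other 10 largest rises were those of Igfbp5, which encodes an insulin-like growth factor binding protein, Bcat1 of branched-chain amino acid breakdown, the epithelial surface protein gene Plet1, the doublecortin family gene Dcdc2a, the secreted protein gene Mia, the BMP receptor gene Bmpr1b, the acid phosphatase gene Acpp, the keratin gene Krt8, the E-cadherin gene Cdh1 and Pax8. Their log2FC with the floor ran from 6.46 (Cdh1 and Pax8) to 7.19 (Igfbp5). Plet1 had signals of 5859, 4751 and 2271 in RT and 5.95, 4.27, 4.23 and 5.36 in ST, with RT replicate 3 the lowest of the 3. For Bcat1, the RT arrays were close together at 4532, 4071 and 4079, against 6.47, 20.3, 28.3 and 37.4 in ST. Both other probe sets of Acpp fell short of a call, while all other probe sets of Ecrg4, Dsp, Bcat1, Plet1, Bmpr1b and Krt8 were called higher.

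**Figure D2:**
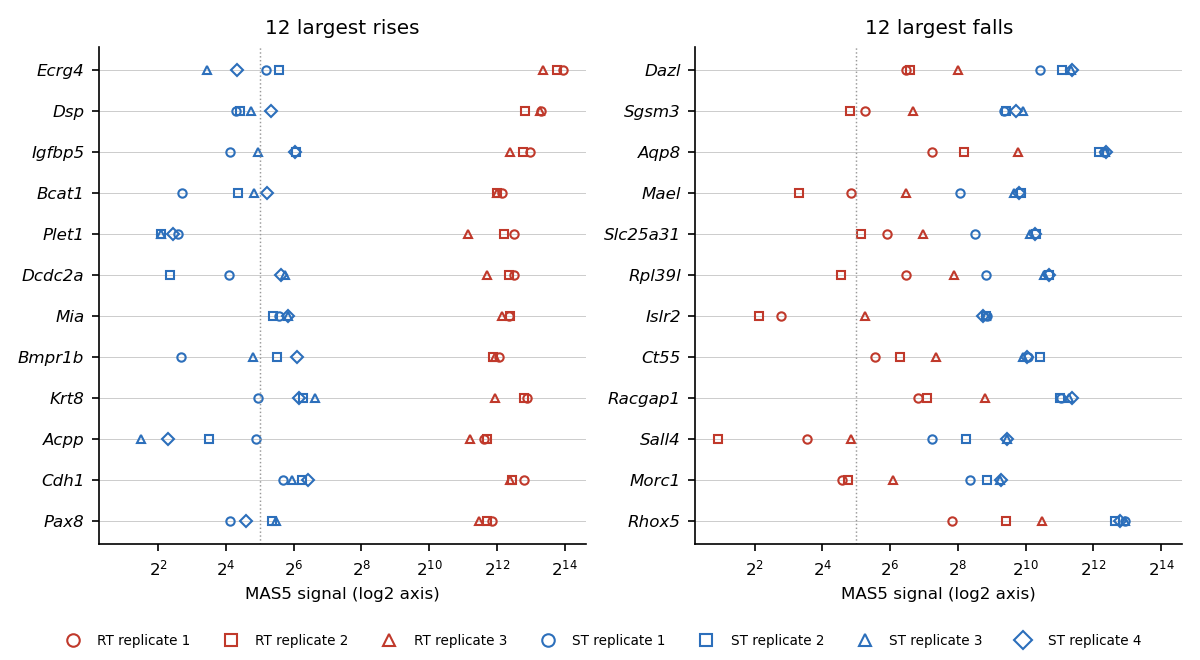
MAS5 signal on a log2 axis (x) of the 12 genes with the largest rise (left) and the 12 with the largest fall (right) in RT, 1 symbol an array, RT red and ST blue, with marker shapes for replicates and a dotted line at the floor of 32. Only genes in which no RT array overlaps an ST array were taken. In all 12 falls RT replicate 3 is the RT array nearest to ST.

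Markers of the rete epithelium were read in the RT pieces. Their list was written with earlier results of these data known, so it is not an independent check of the label. Of 15 measured genes, 14 were higher in RT and none was lower (13 and none when centred), with a median log2 fold change of 4.74 against 0.08 over all genes. Pax8, a paired-box transcription factor gene of the kidney and the genital ducts, had a signal of 3690.0, 3319 and 2831 in RT and 17.4, 40.8, 44.9 and 24.0 in ST (log2FC 6.79 ± 0.41, adjusted p = 3.85e-07). Wfdc2, which encodes a secreted protease inhibitor of genital epithelia, had signals of 3969, 3651 and 3800.0 in RT and 30.1, 66.5, 68.1 and 34.3 in ST (log2FC 6.35 ± 0.37, adjusted p = 3.36e-07). The 3 RT arrays of Wfdc2 lay close together, far above all ST arrays. The summed signal of the 15 genes was 27485–42639 in RT and 1607–1852 in ST.

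Keratins and the desmosome rose nearly as a whole. Of 14 genes, 13 were higher (11 when centred) and none was lower, at a median of 3.62. Krt8 and Krt18, whose proteins pair in the filaments of simple epithelia, had a log2FC of 6.54 ± 0.42 and 6.25 ± 0.41. The signal of Krt18 was 4417, 3692 and 2701 in RT and 19.6, 45.4, 92.3 and 56.7 in ST. Dsg2, the desmosomal cadherin gene of simple epithelia, had signals of 3009, 2116 and 1277 in RT and 14.8, 22.6, 23.6 and 27.5 in ST (log2FC 6.54 ± 0.34, adjusted p = 1.75e-07), and all 5 of its other probe sets were called higher as well.

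Junction genes changed in both directions. Of 21, 14 were higher, 3 were lower and 4 were not called, with the same counts when centred. Cdh1 had signals of 7062, 5595 and 5359.8 in RT and 51.8, 75.7, 61.7 and 86.5 in ST (log2FC 6.46 ± 0.29, adjusted p = 9.16e-08). Cdh16, the cadherin of kidney and Wolffian duct epithelium, had signals of 3425, 3059 and 1394 in RT and 50.05, 6.39, 7.14 and 5.38 in ST, where ST replicate 1 alone was over 32 in ST. Among claudins, the strand proteins of tight junctions, Cldn3 (log2FC 3.60 ± 0.30) and Cldn10 (log2FC 3.96 ± 0.45) were higher in RT, while Cldn23 was lower, at 49.0, 79.4 and 78.6 in RT and 386, 567, 627 and 584 in ST (log2FC -2.98 ± 0.33, adjusted p = 2.25e-05). The polarity gene Pard6b was lower too (log2FC -1.67 ± 0.19, adjusted p = 3.66e-05).

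Genes of the apical membrane and its proteases were higher in 13 of 15 cases and lower in none (12 and none when centred). Mal2, a membrane protein gene of apical transport, had signals of 1535, 1378 and 1132 in RT and 0.868, 2.39, 1.15 and 0.833 in ST. Those ST signals are so near 0 that its log2 fold change of 10.14 became 5.39 with the floor. Prss8, a membrane serine protease gene, rose by a log2FC of 6.18 ± 0.88 (adjusted p = 1.84e-04). Prom1, whose product prominin sits in apical protrusions, had signals of 5031, 5088 and 1160.2 in RT and 46.8, 41.3, 55.3 and 118 in ST, and Prom2 535, 459 and 70.8 in RT and 7.34, 6.33, 42.9 and 2.87 in ST, with RT replicate 3 far below the other 2 in both.

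Of 13 regulators of epithelial state that included the grainyhead family, 2 were higher, near the 12.5% of all genes, and none was lower (2 and 1 when centred), and the median was 0.13. The 2 are the ETS factor genes Ehf, with 744, 752 and 506 in RT and 17.4, 32.4, 21.3 and 30.6 in ST (log2FC 4.74 ± 0.36, adjusted p = 1.67e-06), and Elf3 (log2FC 2.54 ± 0.32, adjusted p = 7.16e-05). Both are also in the rete list, as are Cdh1, Krt8, Krt18 and Mal2 of the lists above. The counts of these lists therefore share genes. Of 10 transcription factor genes of the mesonephric ducts, 5 were higher and none was lower (4 and none when centred). Emx2, a homeobox gene without which the urogenital ducts fail to form, had signals of 3491, 2870.3 and 2088 in RT and 22.6, 23.3, 29.3 and 16.2 in ST (log2FC 6.95 ± 0.38, adjusted p = 2.56e-07). Tfcp2l1, a factor of ducts with ion transport, had signals of 1205, 1158 and 1252 in RT and 61.5, 35.7, 67.1 and 110.0 in ST (log2FC 4.25 ± 0.34), although neither of its other 2 probe sets was called. Gata3, a regulator of nephric duct growth, had signals of 100.002, 111 and 23.2 in RT and 1.33, 1.14, 1.99 and 4.46 in ST, so that 5.06 became 1.15 with the floor.

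Motile cilia carry doublet microtubules, dynein arms and radial spokes, and stir fluid on the ciliated cells of the efferent ducts. Of 33 measured genes of this structure, 27 were higher in RT and none was lower (22 and 1 when centred), with a median of 3.15. Foxj1, the transcription factor gene that starts the motile cilium programme, had signals of 2264, 2399 and 732 in RT and 16.8, 27.2, 33.3 and 18.5 in ST (log2FC 6.10 ± 0.43, adjusted p = 9.59e-07). Pifo, a gene of the primary and nodal cilium, had signals of 1800.1, 1539.7 and 762 in RT and 14.3, 12.3, 19.5 and 20.6 in ST (log2FC 6.30 ± 0.45). The radial spoke gene Rsph4a rose by a log2FC of 5.01 ± 0.45 and the axonemal gene Lrrc23 by 5.58 ± 0.63 (4.07 with the floor). In all 27 higher genes RT replicate 3 was the lowest RT array.

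Promoters of cilium genes are shown because these genes moved together and several hold GTTGCCA, a half-site of the RFX transcription factors, on either strand. Of 29 genes of the list with a promoter in RefSeq (build GRCm38.p6, 250 bases before to 50 after the start), 8 (27.6%) hold GTTGCCA, as do 5.02% of all 27025 genes with a promoter there. Ccno, a list member that holds GTTGCCA, was not called (log2FC 0.33), whereas the genes printed below were all called higher. GTTGCCA was 1 of 12 motifs searched and was singled out after the counts were seen. Tekt1, a gene of ciliary microtubules, and Drc1, of the dynein regulatory complex, were also chosen after their values were seen and rose by a log2FC of 5.12 ± 0.96 and 3.63 ± 0.42. All were read from RefSeq's table. The lines give up to 20 bases on each side of the match, upstream of the start, read 5′ to 3′ along the gene, with the match in capitals.
Pifo, chr3:106001498-106001530, minus strand: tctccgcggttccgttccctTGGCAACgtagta
Lrrc23, chr6:124779740-124779786, minus strand: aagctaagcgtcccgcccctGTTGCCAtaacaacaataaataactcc
Tekt1, chr11:72361883-72361917, minus strand: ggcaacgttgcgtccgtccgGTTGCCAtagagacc
Drc1, chr5:30281361-30281392, plus strand: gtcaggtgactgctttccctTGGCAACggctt

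In Pifo, Tekt1 and Drc1 the match lies 7, 9 and 6 bases upstream of the start, and in Lrrc23, which holds a further match, 33 bases. The full X-box, which joins a pair of half-sites in an inverted repeat, was in 2 of the 29 genes (6.90%) and in 0.529% of all genes, and with its second half-site searched more loosely in 3 of them (10.3%) and 0.788% of all genes. These forms overlap with GTTGCCA, as does GTTGCCATG, which 0 of the 29 and 0.877% of all genes hold. These are matches of letters, and binding was not measured.

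Genes of ion and water transport were called in both directions. Of 20, 11 were higher, 2 were lower and 7 were not called (9 higher and 2 lower when centred). Cftr, the chloride channel gene, had signals of 1441, 1255 and 1432 in RT and 21.1, 17.5, 28.2 and 33.8 in ST (log2FC 5.82 ± 0.39, adjusted p = 7.83e-07). The water channel gene Aqp1 had signals of 4144, 3109 and 878 in RT and 44.5, 48.2, 35.6 and 43.8 in ST (log2FC 5.71 ± 0.47, adjusted p = 3.03e-06). Its RT replicate 3 was the lowest of the 3 and still far above all ST arrays. The sodium-proton exchanger gene Slc9a3 rose by a log2FC of 3.70 ± 0.56 and the carbonic anhydrase gene Car2 by 4.01 ± 0.35. Aqp5, another water channel gene, was lower, with 113, 171 and 237 in RT and 519, 499.8, 449 and 490.0 in ST (log2FC -1.56 ± 0.22, adjusted p = 1.46e-04), as did the anion exchanger gene Slc26a6 (log2FC -1.26 ± 0.27).

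Markers of the efferent ducts, which begin where the rete ends, and of epididymal clear cells were higher in 7 of 11 cases and lower in 1 (5 and 1 when centred). Foxj1, Cftr, Slc9a3 and Aqp5 are among them and were also counted in the lists above. The summed signal of the list was 5715–11819 in RT and 2227–3099.5 in ST, and its array medians above the ST mean were 2.97, 2.83 and 2.26 in RT replicates 1 to 3 on the log2 scale. Lrp2, the endocytic receptor gene megalin, had signals of 762, 641 and 107 in RT and 27.5, 7.93, 36.4 and 18.0 in ST (log2FC 4.26 ± 0.74, adjusted p = 7.51e-04). The oestrogen receptor gene Esr1, chosen after its values were seen, had signals of 5485, 5540.2 and 2719 in RT and 2323, 1541, 1493 and 1511 in ST (log2FC 1.37 ± 0.33) and was not called when centred (0.95, adjusted p = 0.0805). Of 12 secretory genes of the epididymis, none was called under either scale, and 9 stayed under 64 in every array. Adam7, a sperm surface protease gene of the epididymis, chosen after its values were seen, had signals of 166, 214 and 14.7 in RT and 21.2, 7.99, 21.0 and 2.54 in ST (log2FC 3.04 ± 1.08, adjusted p = 0.0544) and was called higher without RT replicate 3. Spink8, a protease inhibitor gene, had signals of 258, 190.1 and 155 in RT and 161, 153, 179 and 124 in ST. The part of duct tissue in the rises above was not tested.

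RT replicate 3 stood apart from the other 2 RT arrays. Of the 2272 genes higher in RT, it was the lowest RT array in 1418 (62.4%), against 309 for replicate 1 and 545 for replicate 2. In replicates 3 and 4 alone, where RT replicate 3 stands against the last 2 ST arrays, the median log2FC was 3.43 for keratins and the desmosome, 2.29 for junction genes, 1.52 for apical genes and 2.14 for the motile cilium, against 3.62, 2.05, 2.14 and 3.15 over all arrays. Of the 1335 lower genes it was the highest RT array in 1045 (78.3%), and the median RT signal in these genes as a percentage of the ST mean was 28.7%, 30.9% and 41.3% in RT replicates 1 to 3. The distance was not alike across lists: the array medians above the ST mean were 3.79, 3.62 and 3.55 for keratins and the desmosome, but 2.87, 2.46 and 1.14 for the mesonephric factors and 3.33, 3.19 and 2.47 for the motile cilium. The replicates also differ in their controls, with an 18S rRNA signal of 20675–32135 in replicates 1 and 2 of RT and ST and 10861–12571 in replicates 3 and 4, and an Actb 3′ over 5′ ratio of 1.31–1.43 against 1.80–1.95. Their part in the distance of RT replicate 3 was not tested.

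**Figure D3:**
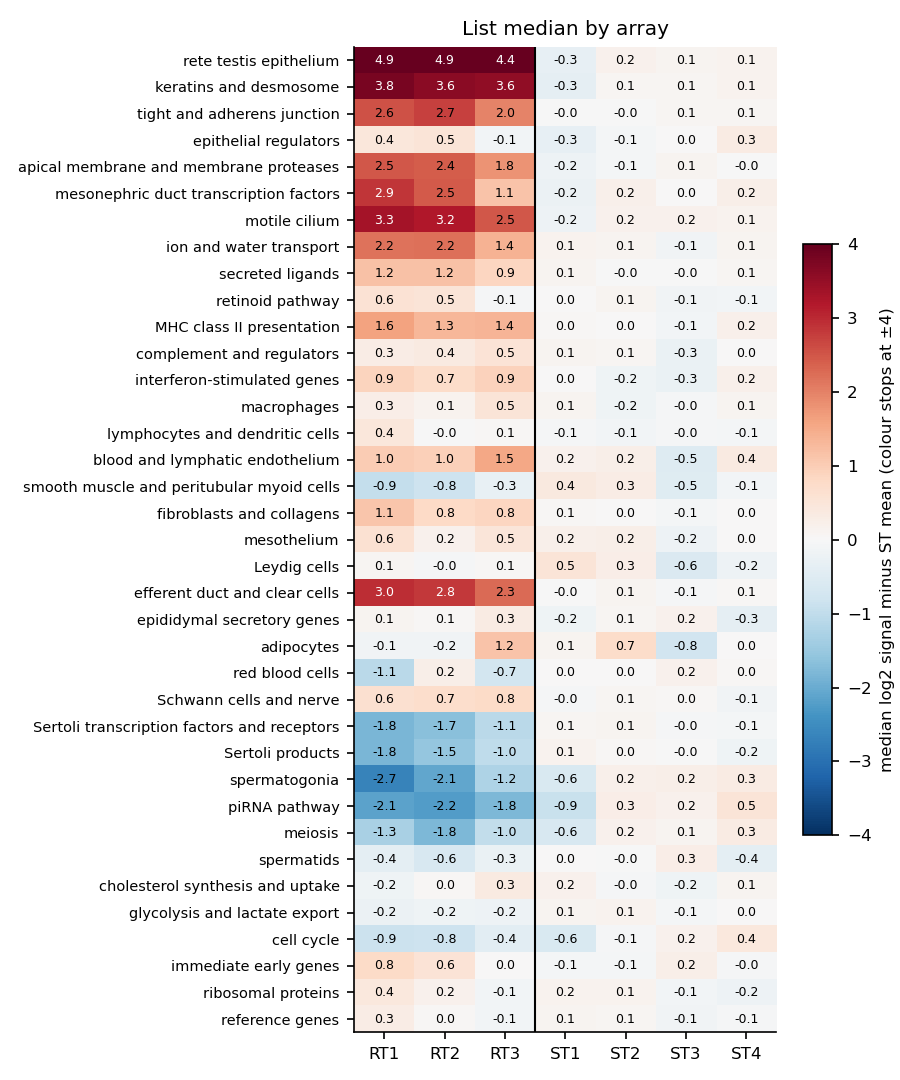
Median over the genes of each list of the log2 signal minus the ST mean (colour and number, colour stops at 4 either way) for each list (rows) in each RT and ST array (columns), as deposited. The rete, keratin and cilium lists are above 2 in all 3 RT arrays and the Sertoli, spermatogonial and piRNA lists are below -1, where RT replicate 3 is the RT array nearest to ST and, for spermatogonia and piRNA, ST replicate 1 the ST array nearest to RT.

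Secreted ligands were called in 24 of 36 cases, 19 higher and 5 lower (11 and 6 when centred). Tgfb2, a transforming growth factor gene, had signals of 4495, 3879 and 3788 in RT and 96.4, 81.0, 138 and 161 in ST (log2FC 5.14 ± 0.28, adjusted p = 2.56e-07), with no RT array near any ST array. Bmp7 (log2FC 2.17 ± 0.27), Tgfa (log2FC 1.97 ± 0.25) and Il34 (log2FC 2.05 ± 0.45), the last a ligand of the macrophage receptor CSF1R, were higher too. Neither other probe set of Tgfa was called (log2FC 1.13 and 0.22). Il34 had signals of 338, 376 and 87.0 in RT and 46.8, 50.5, 65.7 and 54.1 in ST, with RT replicate 3 the nearest to ST. Inhbb, the inhibin and activin beta subunit gene of Sertoli cells, was lower, with 1286, 1572 and 2758 in RT and 10275, 10037, 9307 and 8369.8 in ST (log2FC -2.42 ± 0.24, adjusted p = 1.20e-05), and so was Tgfb1 (log2FC -2.22 ± 0.29), whose other probe set was not called.

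Of 15 genes of the retinoid pathway, 1 was higher and 3 were lower (none and 4 when centred). Cyp26b1, which breaks down retinoic acid, had signals of 993, 1175 and 893 in RT and 2666, 2483, 2162 and 2185 in ST (log2FC -1.22 ± 0.14, adjusted p = 2.71e-05). Aldh1a2, which makes it, had signals of 229.6, 192 and 344 in RT and 553, 648, 485 and 693 in ST (log2FC -1.25 ± 0.22), and the retinol carrier gene Rbp4 a log2FC of -1.77 ± 0.21. Cyp26a1, a second breakdown enzyme, was called higher, but its signal was 17.3, 16.4 and 97.3 in RT and 6.56, 8.59, 9.92 and 7.66 in ST, so that only RT replicate 3 was over 32. The call was lost without RT replicate 3 (1.06, adjusted p = 0.124) and without ST replicate 1 (1.80, adjusted p = 0.0542), and with the floor its log2FC was 0.53.

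Genes of antigen presentation by MHC class II were higher in 6 of 10 cases and lower in none (4 and none when centred). Cd74, the invariant chain gene, had signals of 4353, 5919 and 2822 in RT and 804, 665, 523 and 891 in ST (log2FC 2.56 ± 0.33, adjusted p = 7.94e-05), and H2-Aa, H2-Ab1 and H2-Eb1 rose by a log2FC of 1.92 ± 0.20, 1.56 ± 0.23 and 2.0033 ± 0.27. Of 12 macrophage markers, 1 was higher and 1 lower (none and 1 when centred), with a summed signal of 18266–23534 in RT and 16309–18098 in ST: the scavenger receptor gene Cd163 had a log2FC of 1.24 ± 0.23 (not called when centred) and the complement receptor gene Vsig4 a log2FC of -1.19 ± 0.26. Of 12 lymphocyte and dendritic cell markers, none was higher and the integrin gene Itgax was lower (log2FC -1.23 ± 0.27), and 2 were lower when centred or without RT replicate 1. The summed signal of that list was 908–1215 in RT and 793–892 in ST, and 6 of its genes were under 64 in every array. The part of these cells in the rise of class II genes was not tested.

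Complement genes were higher in 4 of 14 cases and lower in none (2 and 1 when centred). Cfi, the gene of the protease that inactivates complement, had signals of 6245, 5196 and 5801 in RT and 121, 166, 188 and 156 in ST (log2FC 5.20 ± 0.26, adjusted p = 1.22e-07). The membrane inhibitor gene Cd55 rose by a log2FC of 2.0008 ± 0.36, while Cd46 (log2FC 1.33 ± 0.32) and Cfb (log2FC 1.32 ± 0.30) lost their calls when centred. Of 15 genes stimulated by interferon, 4 were higher and 1 was lower (3 and 1 when centred). Oasl2 (log2FC 2.34 ± 0.22), Irf9 (log2FC 2.0001 ± 0.22), Ifit3 (log2FC 1.57 ± 0.38) and Ifit2 (log2FC 1.66 ± 0.43) rose, and Usp18, which removes the modifier ISG15, was lower (log2FC -1.74 ± 0.26). The call of Ifit2 was lost when centred and without RT replicate 1 (1.44, adjusted p = 0.0653).

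Sertoli cell genes were lower in RT or not called. Of 14 Sertoli transcription factor and receptor genes, 7 were lower and the other 7 were not called (9 lower when centred), and of 21 Sertoli products 15 were lower and 6 were not called (17 lower when centred). Dmrt1, which keeps Sertoli cell identity, had signals of 373, 599 and 1088 in RT and 5179, 5616, 4667 and 5200.1 in ST (log2FC -3.05 ± 0.28, adjusted p = 6.78e-06). Fshr, the receptor gene for follicle-stimulating hormone, had signals of 145, 157 and 317 in RT and 1429, 1215, 1349.7 and 1384 in ST (log2FC -2.80 ± 0.31, adjusted p = 2.31e-05). Gata1, a transcription factor gene shared with blood cells, had a log2FC of -2.78 ± 0.29 and Rhox5, a homeobox gene that answers to androgen, -3.56 ± 0.50. In all 4, RT replicate 3 was the highest RT array and lay below every ST array.

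Among the products, Tsx had signals of 525, 1421 and 2272 in RT and 14128, 13579, 12382 and 10673 in ST (log2FC -3.40 ± 0.39), and Hsd17b1, a steroid dehydrogenase gene, 45.7, 24.1 and 55.8 in RT and 417, 310.2, 531 and 497 in ST (log2FC -3.44 ± 0.39). Shbg, the gene of androgen-binding protein, had a log2FC of -2.97 ± 0.35 and the dopamine receptor gene Drd4 a log2FC of -2.88 ± 0.35. Kitl, the gene of the ligand of the KIT receptor, was chosen after its values were seen and had signals of 2735, 3334 and 4249.5 in RT and 8622, 8186, 9425 and 8459 in ST (log2FC -1.36 ± 0.15, adjusted p = 2.28e-05). The median signal of the product list stood at 27.9%, 34.2% and 49.2% of the ST mean in RT replicates 1 to 3, and that of the transcription factor list at 28.0%, 31.7% and 47.3%. Signals of the product list summed to 101359–130976 in RT and 205301–266507 in ST. RT replicate 3 was the nearest to ST in both lists.

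Some genes that are also known as Sertoli cell regulators were not called. They were picked after their values were seen. Wt1, a regulator of the early gonad and its supporting cells, had signals of 7833, 5796 and 6374 in RT and 6556, 6961, 6149 and 5844 in ST (log2FC 0.06 ± 0.13, adjusted p = 0.818, and -0.37 when centred). Sox9, the testis-determining factor gene downstream of Sry, had signals of 1517, 1991 and 1377 in RT and 1822, 2079.8, 2244 and 1708 in ST (log2FC -0.28 ± 0.20, adjusted p = 0.372). Gata4 had signals of 849, 1088 and 889 in RT and 1132, 1328, 1134 and 1086 in ST (log2FC -0.32 ± 0.15, adjusted p = 0.158). When centred, its log2FC was -0.74 (limma adjusted p = 0.0134), which is under 2-fold. RT and ST arrays of Wt1 and Sox9 overlapped, while those of Gata4 did so in RT replicate 2 alone.

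Germ cell genes were mostly lower in RT than in ST of the same mutant. Of 21 genes of spermatogonia, 14 were lower and 2 were higher, with the same counts when centred, and of 18 genes of the piRNA pathway, which silences transposons in germ cells, 13 were lower and none was higher (14 and none when centred). Dazl, a germ cell RNA-binding protein gene with the largest fall after the floor, had signals of 87.9, 95.3 and 255.6 in RT and 1373, 2164, 2589 and 2659 in ST (log2FC -4.04 ± 0.40, adjusted p = 1.10e-05). Sall4, a transcription factor gene of stem and progenitor spermatogonia, had signals of 11.7, 1.87 and 28.9 in RT and 149.95, 300.1, 702 and 695 in ST (log2FC -5.49 ± 0.85, -3.59 with the floor). Ddx4, a helicase gene of germ granules, had signals of 39.6, 29.2 and 98.1 in RT and 183, 736, 725 and 928 in ST (log2FC -3.50 ± 0.55), and Stra8, which starts meiosis on retinoic acid, -3.13 ± 0.39. Within ST, replicate 1 was the lowest array of Dazl, Sall4, Ddx4 and Stra8.

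The 2 higher genes of the spermatogonial list code for the parts of one receptor. Gfra1, the coreceptor gene for GDNF, had signals of 2379, 2328 and 2698 in RT and 53.7, 138, 168 and 173 in ST (log2FC 4.34 ± 0.39, adjusted p = 5.82e-06), and both its other probe sets were called higher. Ret, the kinase gene that signals with it, had signals of 343, 425 and 159 in RT and 53.1, 82.5, 83.5 and 68.1 in ST (log2FC 2.01 ± 0.33, adjusted p = 4.94e-04). Its second probe set was not called. Both genes are also active outside the germ line.

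In the piRNA pathway, Mael had signals of 28.8, 9.89 and 88.7 in RT and 267, 926, 814 and 890.3 in ST (log2FC -4.47 ± 0.64, -3.86 with the floor), Gtsf1 -4.39 ± 0.88 and Tdrd1, a Tudor domain scaffold gene, 6.31, 5.42 and 34.02 in RT and 305, 289.9, 207 and 296 in ST (log2FC -4.69 ± 0.55, adjusted p = 3.79e-05). Promoters of 3 germ cell genes, Ddx4 among them, are shown because the list fell together and the E-box CACGTG, a palindrome, is frequent in it: 7 of 16 genes with a promoter (43.8%) hold it, against 8.09% of all genes. It was likewise singled out after the counts were seen. The E-box is in capitals.
Mael, chr1:166238942-166238987, minus strand: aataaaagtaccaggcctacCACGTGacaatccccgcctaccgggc
Tdrd1, chr19:56826178-56826208, plus strand: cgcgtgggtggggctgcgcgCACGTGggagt
Ddx4, chr13:112652314-112652359, minus strand: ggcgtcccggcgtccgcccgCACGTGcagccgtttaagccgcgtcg

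CACGTG was also in 3 of 8 promoters of the Sertoli transcription factors (37.5%), 5 of 15 of junction genes (33.3%) and 3 of 11 of ribosomal proteins (27.3%), a list with no call. Of the motifs left, all genes hold AACCGGTT in 0.174%, AACNNGTT in 4.77%, the HNF1 palindrome in 0.0111%, GGCGGGAA in 2.52%, the DMRT1 site in 0.0407%, AACAATGG in 1.22% and TGACGTCA in 2.03% of cases, searched on both strands. AACCGGTT can lie inside AACNNGTT.

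Of 23 meiosis genes, 9 were lower and 1 was higher (14 and 1 when centred). Sycp1 (log2FC -2.94 ± 0.50) and Syce3 (log2FC -3.46 ± 0.80) of the synaptonemal complex and the cohesin gene Stag3 (log2FC -3.76 ± 0.58) fell together with Stra8. Rec8, a cohesin gene known from meiosis, was higher, with signals of 594, 455 and 481 in RT and 80.5, 55.7, 113 and 49.6 in ST (log2FC 2.84 ± 0.29, adjusted p = 1.34e-05). Of 14 spermatid genes, Odf1, of the sperm tail, was the 1 called lower (log2FC -3.57 ± 0.86), but its log2FC was -0.83 and not called with the floor and neither of its other probe sets was called. When centred, 2 spermatid genes were lower. The rest of the largest falls were those of Sgsm3 (log2FC -4.02 ± 0.39), which encodes a regulator of small GTPases, the testis ADP/ATP carrier gene Slc25a31 (log2FC -3.80 ± 0.52), the ribosomal protein paralogue gene Rpl39l (log2FC -3.89 ± 0.67), the cancer/testis gene Ct55 (log2FC -3.72 ± 0.34), Morc1 of transposon silencing (log2FC -3.79 ± 0.42), the membrane protein gene Islr2 (log2FC -5.42 ± 0.63), the cytokinesis gene Racgap1 (log2FC -3.61 ± 0.41) and the water channel gene Aqp8. Aqp8 had signals of 149.8, 293 and 869 in RT and 5141, 4609, 5165 and 5332 in ST (log2FC -3.91 ± 0.46, adjusted p = 4.31e-05). RT replicate 3 was its highest RT array, and the groups did not overlap, as the choice of the largest falls required.

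Of 24 cell cycle genes, 8 were lower and none was higher (14 and none when centred). Cdk1, the mitotic kinase gene, had signals of 218, 270.2 and 548 in RT and 2202, 2103, 2426 and 2145 in ST (log2FC -2.80 ± 0.29, adjusted p = 1.50e-05). Bub1 (log2FC -2.92 ± 0.50), a spindle checkpoint gene, and the cyclin genes Ccna2 (log2FC -1.79 ± 0.30) and Ccne1 (log2FC -1.54 ± 0.45) fell too. The other probe sets of Bub1 (log2FC 0.40) and Ccna2 (log2FC -0.26) were not called. The call of Ccne1 was lost with the floor and without RT replicate 1 (-1.30, adjusted p = 0.101), RT replicate 2 (-1.16, adjusted p = 0.116) or ST replicate 3 (-1.40, adjusted p = 0.0572). The count of 8 lower genes was 4 without RT replicate 2 and 5 without ST replicate 3.

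Among genes of glycolysis and lactate export, 2 of 17 were higher, near the 12.5% of all genes, and 2 were lower (1 and 6 when centred). The pair of hexokinases went opposite ways. Hk1 had signals of 3139.7, 2557 and 2596 in RT and 544, 739, 477 and 619 in ST (log2FC 2.23 ± 0.20, adjusted p = 6.19e-06), and Hk2 1515, 1782 and 2902 in RT and 6101, 5895, 6892 and 6952 in ST (log2FC -1.70 ± 0.24, adjusted p = 1.66e-04). The phosphofructokinase gene Pfkp rose by a log2FC of 1.37 ± 0.26, though not when centred, and Slc16a1, a lactate transporter gene, was lower (log2FC -1.12 ± 0.18), with a call lost without RT replicate 1 (-0.998), under 2-fold. None of 17 genes of cholesterol synthesis and uptake was called under either scale. Of 14 immediate early genes, which respond to handling and stress, 3 were higher and 2 lower (1 and 2 when centred). Over all genes 12.5% were higher and 7.34% lower, and 7.98% and 15.0% when centred, so the centred counts are near these shares. Ier3 rose by a log2FC of 3.20 ± 0.21, and Socs3 (log2FC 1.16 ± 0.31) and Dusp1 (log2FC 1.10 ± 0.33) were not called when centred. Ier2 (log2FC -1.13 ± 0.22) and Egr2 (log2FC -1.08 ± 0.29) were lower. Dusp1 was not called with the floor either, and its call was lost without RT replicate 1 (1.04, adjusted p = 0.0892), RT replicate 2 (0.89, adjusted p = 0.122), ST replicate 1 (1.01, adjusted p = 0.0643) or ST replicate 2 (0.96, adjusted p = 0.0688). Socs3 lost its call without RT replicate 1 (1.02, adjusted p = 0.0727) or ST replicate 1 (0.84), and Egr2 without RT replicate 1 (-1.02, adjusted p = 0.0564) or ST replicate 3 (-0.94). Dusp1 also overlapped between RT and ST. Of the 14 genes, 1 was higher without RT replicate 1 or ST replicate 1.

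Markers of other cells that the pieces could hold were also measured. For endothelium 5 of 13 genes were higher and none was lower, but 1 remained when centred, with a summed signal of 5883–7909 in RT and 1397–2401 in ST. That one was Kdr, a VEGF receptor gene, with 2964, 3138 and 2642 in RT and 174, 240.4, 152 and 257 in ST (log2FC 3.85 ± 0.22, adjusted p = 2.86e-07). The VE-cadherin gene Cdh5, a defining endothelial marker chosen after its values were seen, had signals of 392.03, 392.2 and 522 in RT and 300.5, 306, 229.5 and 212 in ST (log2FC 0.74 ± 0.25), under the fold threshold. Vwf (log2FC 1.39 ± 0.41), Emcn (log2FC 1.32 ± 0.41) and Lyve1 (log2FC 1.48 ± 0.39) were not called when centred, and Vwf was highest in RT replicate 3, at a signal of 1369.8. With the floor, Vwf and Emcn were not called. Vwf lost its call without RT replicate 3 (0.84, adjusted p = 0.114) or ST replicate 3 (1.21, adjusted p = 0.0639), Lyve1 without RT replicate 1 (1.12, adjusted p = 0.0882), and Emcn without RT replicate 1 (1.39, adjusted p = 0.068), RT replicate 3 (1.07, adjusted p = 0.122), ST replicate 2 (1.33, adjusted p = 0.0551) or ST replicate 3 (1.11, adjusted p = 0.0792). The count of 5 was 8 with the replicate number as a block, 3 without RT replicate 1 and 2 without RT replicate 3 or ST replicate 3.

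Myoid and smooth muscle genes were lower in 4 of 10 cases and higher in 1 (5 and 1 when centred), with a summed signal of 13974–17739 in RT and 26414–41316 in ST. Acta2, of smooth muscle actin, had signals of 2335, 2312 and 4989 in RT and 12189.7, 9939, 7976 and 8189 in ST (log2FC -1.65 ± 0.24, adjusted p = 2.08e-04). Myl9 (log2FC -1.45 ± 0.17), Cnn1 (log2FC -2.54 ± 0.61) and Actg2 (log2FC -1.30 ± 0.38) fell and Smtn rose (log2FC 1.58 ± 0.24). In replicates 3 and 4 alone the log2FC was -0.70 for Acta2, -0.21 for Cnn1 and 0.07 for Actg2, against -2.24, -3.98 and -2.11 in replicates 1 and 2. Of these 3 genes, Actg2 and Cnn1 overlapped between RT and ST. Actg2 lost its call without RT replicate 1 (-1.01, adjusted p = 0.111), RT replicate 2 (-1.02, adjusted p = 0.109), ST replicate 1 (-1.23, adjusted p = 0.0528) or ST replicate 2 (-1.20, adjusted p = 0.0553).

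Of 12 fibroblast and collagen genes, Col1a1 (log2FC 1.66 ± 0.18) and Fbln1 (log2FC 1.36 ± 0.24) were higher, the second not when centred, and none was lower. Neither other probe set of Fbln1 was called (log2FC 0.74 and 0.48), and 2 of 12 is near the 12.5% of all genes. The summed signal of the list was 54579–66888 in RT and 31038–45785 in ST. The count of higher genes was 1 when centred, 4 with the replicate block, 6 without RT replicate 2 and 4 without RT replicate 3. Of 9 mesothelial genes 2 were higher and 1 was lower, on both scales: Upk3b had signals of 376, 310.4 and 264 in RT and 3.33, 4.88, 3.42 and 5.39 in ST, Gpm6a 904, 829.8 and 1114 in RT and 15.8, 27.5, 11.5 and 6.90 in ST, and Bnc1 28.9, 4.82 and 15.1 in RT and 38.2, 110.4, 86.5 and 141 in ST. The summed signal of that list was 1753–2084 in RT and 555–852 in ST. None of 7 Leydig cell genes was called on either scale, and Akr1cl, an aldo-keto reductase gene, had signals of 23725, 20216 and 20105 in RT and 28991, 24302, 14159 and 17181 in ST. The summed signal of Leydig genes was 65404–73426 in RT and 45523–93188 in ST.

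Of 5 adipocyte genes none was called on either scale, and the fatty acid carrier gene Fabp4 had signals of 117, 195 and 434 in RT and 136, 158, 74.6 and 168 in ST. Their summed signal was 177–627 in RT and 185–333 in ST. Of 3 red blood cell genes, the haem synthesis gene Alas2 was lower (log2FC -1.13 ± 0.27, a call lost without RT replicate 2, -0.92), with a summed signal of 224–321 in RT and 380.3–576 in ST, and of 5 nerve and Schwann cell genes 1 probe set of Mbp, of myelin, was higher (log2FC 1.70 ± 0.25) while none of its 7 other probe sets was. The summed signal of the nerve list was 4392–5318 in RT and 2308–2915 in ST. The red blood cell and nerve counts were the same when centred. Without RT replicate 3, ST replicate 1 or ST replicate 2, 2 nerve genes were higher. The part of vessels, connective tissue, mesothelium and nerve in the other differences was not tested. None of 14 ribosomal protein genes and none of 13 reference genes was called on either scale (as deposited, 1 reference gene was higher without RT replicate 3 or ST replicate 2), with medians of 0.14 and 0.04 as deposited and -0.28 and -0.38 when centred.

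**Figure D4:**
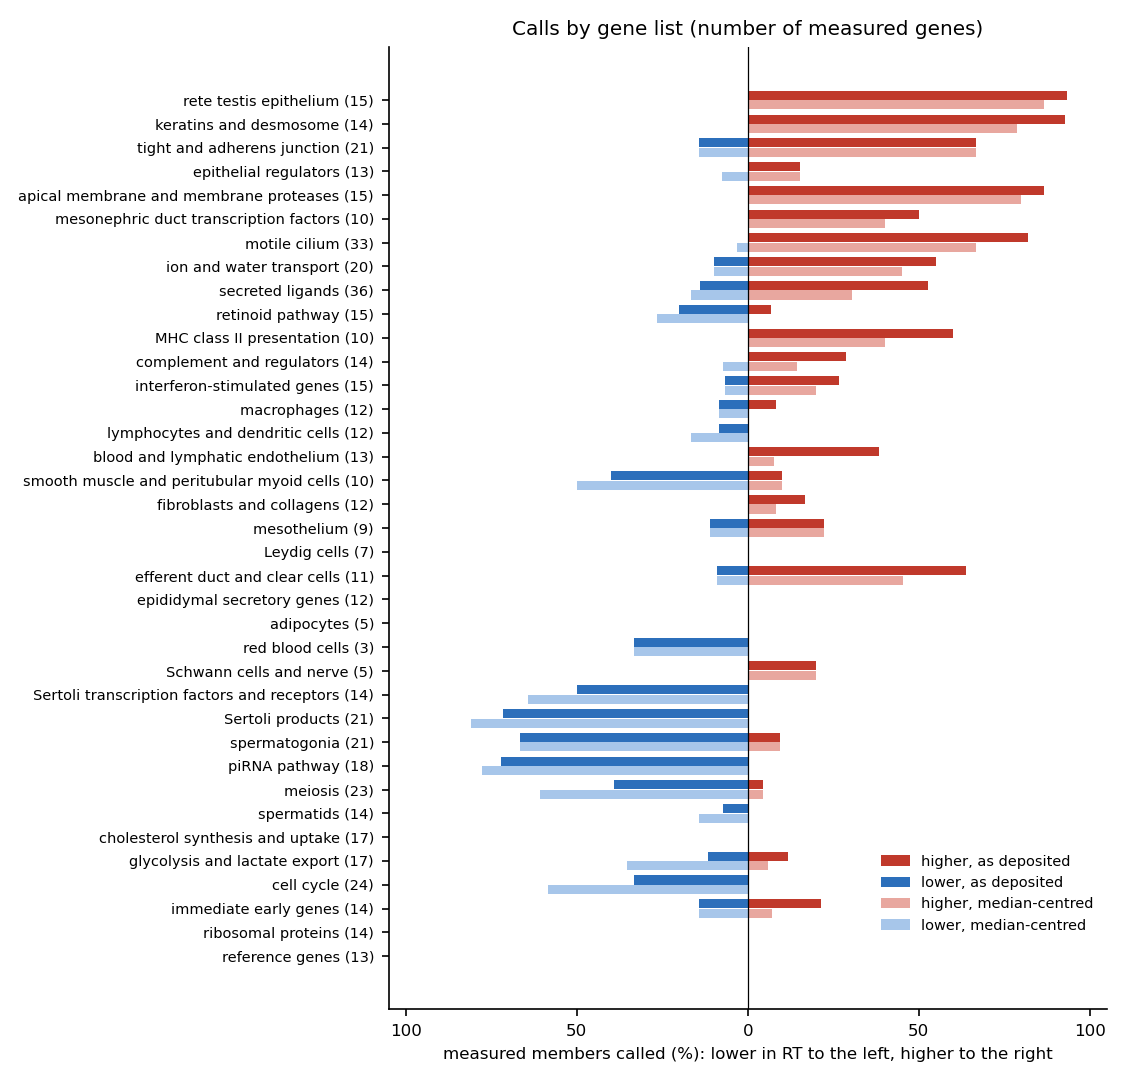
Percentage of the measured genes of each list (y axis, number of genes in brackets) called higher in RT (red, to the right) and lower (blue, to the left) on the x axis, as deposited (dark) and median-centred (pale). Over all genes 12.5% were higher and 7.34% lower as deposited, and 7.98% and 15.0% when centred. Epithelial, cilium and transport lists lie to the right and Sertoli, spermatogonial and piRNA lists to the left on both scales.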

How the data were processed

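Total RNA of 3 RT, 4 SV and 4 ST pools of 20 testes each was measured on Affymetrix Mouse Genome 430 2.0 arrays after 3′ IVT amplification. The deposited values are MAS5.0 signal intensities on a linear scale, which the authors scaled to a common trimmed mean (500.0 in every array). Probe sets were named with the platform annotation, and 18194 genes were each represented by the probe set of 1 symbol with the highest mean log2 signal. From the deposited intensities, log2 signals of all 11 arrays were fitted with limma 3.58.1 (R 4.3.3, lmFit and eBayes with intensity trend), RT minus ST was tested at 45101 probe sets, and calls needed a Benjamini-Hochberg adjusted p under 0.05 and a change over 2-fold. SV arrays entered the spread, the choice of each gene's probe set (made over all 11 arrays), quantile normalization and the choice of reference probe sets. Low signals were left in, with a floor of 32 as an alternative.

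Genes are named by a rule: the 12 largest floored changes in each direction among called genes without overlap between groups and with a mean signal over 64 in the higher group, up to 4 called members of each list in its main direction and up to 2 in the other, and, for cell type lists with no call, the member with the highest mean signal. Members and gene lists were chosen with earlier results of these data known. Of 584 distinct symbols in 37 lists, 63 are not analysed here. Alternatives were median, quantile and reference gene scaling, a pseudocount or floor of 32 and a signal filter of 64. Further ones were other samples or moderation in the fit, replicate and set blocks, each set alone and each array left out. Student's t-test on log2 signals and calls without a fold threshold were also run. The statistics were tested on simulated data. Figures were drawn with matplotlib 3.10.9 in Python 3.11.15 (pandas 2.3.3).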

Additional observations from a re-analysis of the deposited data

Results flagged for a closer look

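In 10 of 136 named genes 1 of the 4 ST arrays lay far from the other 3 on the log2 scale. Its gap to the nearest of them took a larger share of the ST range of log2 signals than Dixon's 95% limit for 4 samples allows. Chance gives about 1 such group in 20. For Mael the share was 0.896, for Ddx4 0.848, for Rpl39l 0.927, for Slc25a31 0.916 and for Sycp1 0.842, in each case with ST replicate 1 the lowest (signals of 267, 183, 458, 364 and 87.9). These 5 are germ cell genes or were among the largest falls. ST replicate 1 was also the lowest ST array for the median of the spermatogonial list, at 65.2% of the ST mean, of the piRNA list at 53.8%, of the meiosis list at 63.9% and of the cell cycle list at 64.9%. In all 5 genes it still lay above every RT array. ST replicate 1 was the highest for Esr1 (0.929, a signal of 2323) and Cdh16 (0.873, 50.05). For Tdrd1 (0.866, 207) and Cldn10 (0.833) ST replicate 3 was the lowest, and for Cd163 (0.879) ST replicate 2.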

How the results depend on the processing

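As deposited, 4607 probe sets were higher in RT and 2473 lower than in ST. With median centring the counts were 2812 and 5254, with reference gene centring 2255 and 7051, and with quantile normalization 3482 and 3535. Replicates 3 and 4 alone gave 1016 and 869, where the lone RT array takes its spread from the other groups, replicates 1 and 2 alone 5089 and 2589, and no fold threshold 6540 and 4890. Student's t-test run on log2 signals, at the methods' thresholds, gave 5099 and 2728, and 3452 and 2001 after Benjamini-Hochberg adjustment. The paper does not state a log scale for its t-test, and it reports fewer probes higher in RT. Without single arrays, 3500–4533 were higher and 2120–2841 lower, and 2105–2825 and 4607–5390 when centred. The cause of these shifts was not tested.

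With the replicate number as a block, 5895 were higher and 2593 lower (3429 and 6086 with median centring as well), and with the sets of replicates 1 and 2 against 3 and 4 as a block 5542 and 2525. Deviations of same-numbered RT and ST arrays from their group means correlated at 0.082, 0.069 and 0.15 over all probe sets and at 0.21, 0.24 and 0.34 over those with a mean signal over 64. There, arrays of the same set with another number correlated as much (0.21 to 0.37) and arrays of different sets at -0.34 to -0.23, so the deviations followed the sets and the numbers were not taken as pairs. The replicate block changed no call of the 129 called genes named and raised the endothelial count from 5 to 8 and the fibroblast count from 2 to 4. Of these, 116 kept the call with median centring and 117 without each array in turn.

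Values changed sign for Actg2 in replicates 3 and 4 alone (0.075), for Akr1cl with median centring (-0.36), reference gene centring (-0.54), the replicate block (-0.011), the set block (-0.031), replicates 1 and 2 alone (-0.28) and without RT replicate 1, ST replicate 3 or ST replicate 4 (-0.11 to -0.013, range without single arrays -0.11 to 0.24), for Spink8 with either centring (-0.058 and -0.24), and for Wt1 with either centring (-0.37 and -0.55), in replicates 1 and 2 alone (-0.0038) and without RT replicate 1 (-0.066). In other probe sets of the same gene the sign was opposite, with no call, for Bub1 (0.40), Cdh5 (-0.093), Ehf (-0.48), Fabp4 (-0.76 and -1.09), Lrp2 (-0.54), Mbp (-0.083, -0.17, -0.028, -1.43, -1.54 and -0.50) and Tfcp2l1 (-0.50). Of 93 other probe sets of the called named genes, 58 had the same call, none the opposite one and 35 no call. Among those with a mean signal over 64, 57 of 71 had the same call. Signals near 0 and the single RT array of the second set limit the precision.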
